A study of Mus musculus with 14 samples.

Results

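The 9 genes described here encode transcription factors that set up and maintain skeletal muscle. Pax7 and Pax3 mark muscle progenitors. Myf5, Myod1, Myog and Myf6 are the myogenic regulatory factors, which drive commitment to the muscle fate and the genes of the contractile fiber. Tbx1, Isl1 and Msc act upstream of them in the muscles of the head and pharynx, called branchiomeric, and the striated muscle of the rodent esophagus is known to come from that Tbx1- and Isl1-dependent lineage and not from the Pax3-dependent somites. The genes were found by exact match of their symbols, and all 9 were among the 55291 symbols counted in each sample.

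Bulk RNA-Seq was performed on 14 samples from 9 untreated wild-type C57BL/6 mice. Peeled epithelium came from 5 aged mice (O1, O2, O3, OF5 and OM8, at least 18 months old) and 4 young mice (Y1, Y3, YF5 and YM4, at most 4 months old). The muscle-containing tissue separated from that epithelium, labelled stroma, was available for O1, O2 and O3 among the aged and for Y1 and Y3 among the young mice, 3 and 2 samples. The levels of the 9 genes were compared between stroma and epithelium and, within stroma, between aged and young mice.

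In stroma, 5 of the 9 genes (Myf6, Tbx1, Myod1, Myog and Isl1) had 65 to 1891 counts in each of the 5 samples, the adult fiber factor Myf6 and the branchiomeric factor Tbx1 most of all. Pax7 had 19 to 74 counts, and Pax3, Myf5 and Msc fell to between 0 and 3 counts in at least 1 stromal sample each. Tbx1 was also counted in all 9 epithelial samples, at 5.29% of its stromal level, whereas 12 genes of the contractile apparatus, summed, were at 0.872%. Pax7 and Pax3, on at most 9 counts in any epithelial sample, were at 5.39% and 19.9%, and the other members lay below Tbx1. None of the 9 genes passed the test for a difference between aged and young stroma.

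The genes lie on 6 chromosomes. In GRCm38 with the GENCODE M21 annotation, Pax7 spans chr4:139737062-139833528, Pax3 chr1:78101267-78197134, Myf5 chr10:107482908-107486134, Myf6 chr10:107492853-107494737, Tbx1 chr16:18580979-18590671, Isl1 chr13:116298281-116309689 and Msc chr1:14753346-14755992, all on the minus strand. Myod1 (chr7:46376474-46379099) and Myog (chr1:134289989-134292548) are on the plus strand. All 9 are protein-coding. Msc shares 539 exonic bases with the antisense gene Gm9947, and the setting for strand in counting is not given in the sources used here, so its counts may include that transcript.

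Sequence before the transcription start was available from RefSeq (GRCm38.p6) for 5 of the 9 genes in 6 windows of 250 bases. The windows of Myog, Myf5 and Isl1 are shown, and each holds a match to a letter pattern searched, in capitals. A Tbx1 window with a match, described below, is not shown. The patterns searched on both strands were the E-box CANNTG, read by the myogenic regulatory factors, and a MEF2-like pattern, CTANNNNTAG. The MEF3 pattern TCAGGTT, known from muscle promoters, and TATAAA were also searched. CTANNNNTAG leaves its middle letters free, so a match need not be a MEF2 site. Its end is fixed, so other forms of that site were not marked.
Myog, chr1:134289754-134290003, plus strand: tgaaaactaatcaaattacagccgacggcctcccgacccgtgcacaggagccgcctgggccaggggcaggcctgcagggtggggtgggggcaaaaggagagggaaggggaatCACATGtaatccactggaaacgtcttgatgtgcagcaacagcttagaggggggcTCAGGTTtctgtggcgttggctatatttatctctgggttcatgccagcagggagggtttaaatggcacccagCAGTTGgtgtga
Myf5, chr10:107486135-107486384, minus strand: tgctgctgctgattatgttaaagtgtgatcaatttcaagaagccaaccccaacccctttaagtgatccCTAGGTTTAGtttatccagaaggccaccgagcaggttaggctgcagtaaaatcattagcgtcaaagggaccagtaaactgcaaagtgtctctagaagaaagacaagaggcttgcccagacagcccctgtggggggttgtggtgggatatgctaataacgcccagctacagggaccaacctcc
Isl1, chr13:116309689-116309938, minus strand: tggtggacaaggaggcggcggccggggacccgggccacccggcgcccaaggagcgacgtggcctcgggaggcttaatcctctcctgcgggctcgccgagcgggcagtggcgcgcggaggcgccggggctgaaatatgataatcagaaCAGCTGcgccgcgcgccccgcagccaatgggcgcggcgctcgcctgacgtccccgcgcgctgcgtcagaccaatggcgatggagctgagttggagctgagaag
In the Myog window, the MEF3 pattern lies 84 to 78 bases before the start, and E-boxes lie 138 to 133 and 12 to 7 bases before it. The Myf5 window holds 1 match to the MEF2-like pattern, CTAGGTTTAG, 182 to 173 bases before the start. The Isl1 window holds 1 E-box, CAGCTG, 103 to 98 bases before the start. One of the 2 Tbx1 windows also held an E-box, whereas the Pax7 window and the other Tbx1 window held none of the patterns, and TATAAA was in none of the 6. Of 32851 promoter windows of the same length, 66.2% held an E-box, 3.2% the MEF2-like pattern, 3.5% the MEF3 pattern and 12.4% TATAAA. These matches describe letters and not binding.

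Total counts ranged from 8217516 to 21867101 per sample, and from 13257833 to 15644580 in stroma. Counts in protein-coding genes fell to between 1041386 and 1432506 in OF5, OM8, YF5 and YM4, which have epithelium only. Values below are normalized counts, that is, counts per 1000000 of the TMM-adjusted library size, and in these 4 samples 3 counts correspond to 0.704 to 1.24 normalized counts, against 0.0868 to 0.174 in the others. The labels matched the tissues: 7 keratinocyte genes summed to between 16920 and 53810 normalized counts in epithelium and between 45.6 and 445 in stroma, and 12 skeletal muscle genes to between 15.4 and 1699 in epithelium and between 40140 and 73030 in stroma. Smooth muscle markers did not separate the layers, at 381 to 953 in epithelium and 318 to 2297 in stroma. Olfactory receptor genes, which serve the nose, were used to gauge counts that do not come from expression. Of 1408 such genes, 794 and 1100 had a count in the stroma of Y1 and Y3, but 310, 366 and 127 in that of O1, O2 and O3. Each gene counted held 6.37 and 6.84 counts on average in Y1 and Y3, 19.4 in O1, 10.7 in O2 and 22.7 in O3. All aged stromal libraries thus had fewer of these genes, with more counts each, than the young ones, O1 and O3 most of all. Over all genes, 34224 and 41308 had a count in the stroma of Y1 and Y3, but 22961, 25497 and 20115 in that of O1, O2 and O3. In stroma, age and this difference between libraries cannot be told apart.

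**Figure D1:**
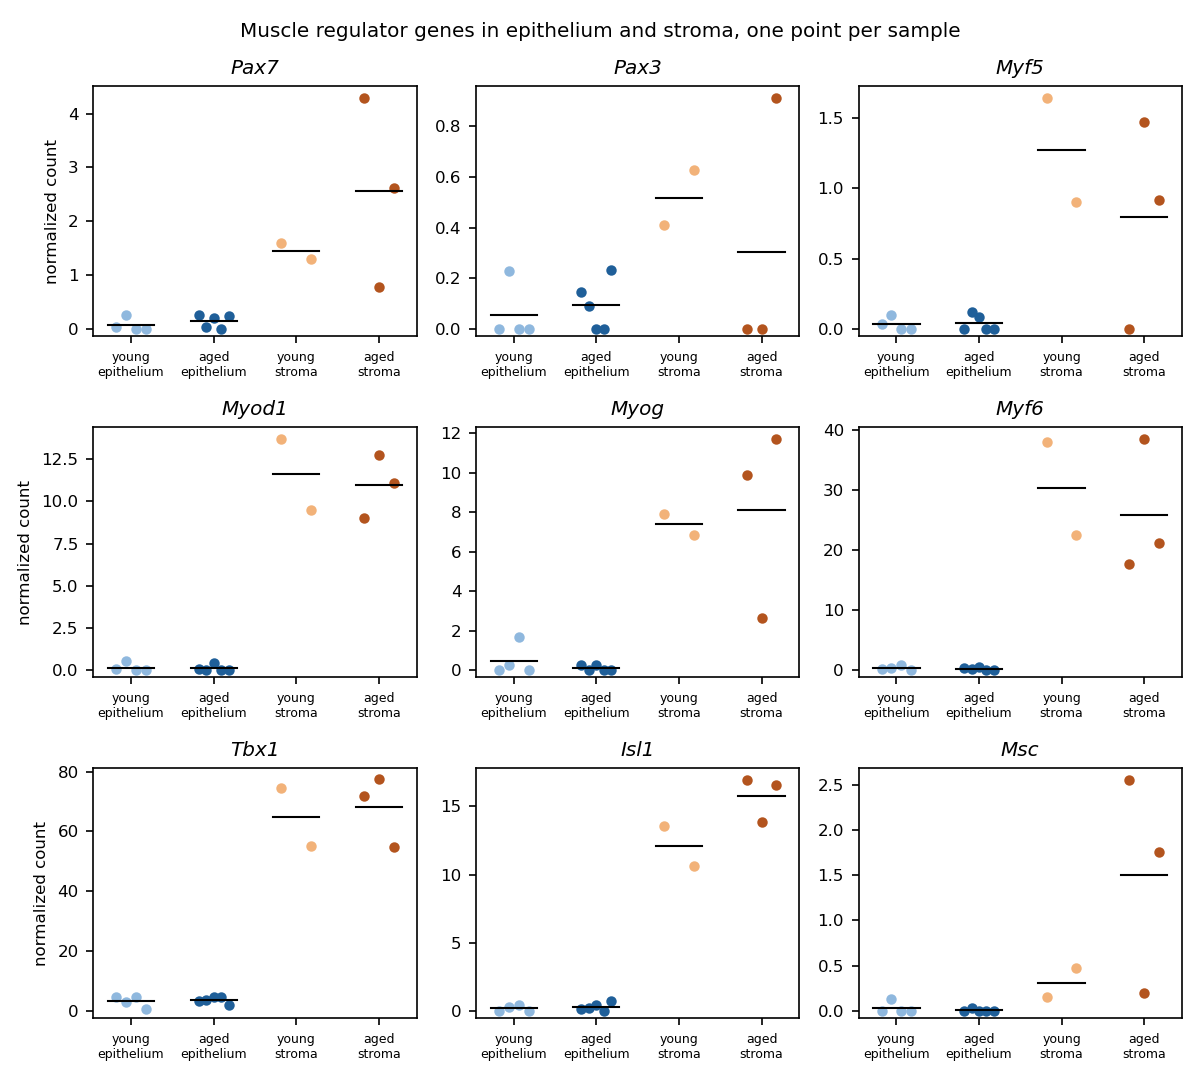
Normalized counts of the 9 genes, with 1 point per sample and a line at the mean of each group (4 young and 5 aged epithelial samples, 2 young and 3 aged stromal samples). Each panel has its own linear axis. Myod1, Myog, Myf6, Tbx1 and Isl1 were higher in every stromal sample than in every epithelial sample, and only Tbx1 of these had a mean epithelial level above 1 normalized count.

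Pax7, the transcription factor of satellite cells, the stem cells of muscle, was at 31 and 33 counts in the young stroma of Y1 and Y3 and at 74, 19 and 69 counts in the aged stroma of O1, O2 and O3. These counts correspond to 1.59, 1.29, 4.30, 0.777 and 2.63 normalized counts. In epithelium it was at 0 to 9 counts. The lowest stromal sample, O2, lay above the highest epithelial sample, at 0.261 normalized counts. The stromal mean of 2.12 ± 1.39 (SD, n = 5) and the epithelial mean of 0.114 ± 0.121 (n = 9) differed by a log2 fold change of 3.83 (SE 0.66, adjusted p = 5.05e-05, edgeR's quasi-likelihood test). Without the stroma of O1 and O3, the samples with the highest values, the log2 fold change was 2.98 (adjusted p = 0.000902).

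Pax3, the progenitor factor of trunk and limb muscle, was at 8 and 16 counts in the stroma of Y1 and Y3, at 0 in that of O1 and O2 and at 24 in that of O3. The highest epithelial sample had 7 counts, and the layers overlapped. A count of 0 allowed up to 0.174 normalized counts in O1 and 0.123 in O2, a limit for counting error only. Pax3 did not reach the filter on low counts. In a fit without that filter, its log2 fold change between stroma and epithelium was 1.92 (SE 1.18, adjusted p = 0.219), which did not pass the test.

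Myf5, which acts first among the myogenic regulatory factors and is kept in quiescent satellite cells, was at 32 and 23 counts in young stroma and at 0, 36 and 24 counts in the aged stroma of O1, O2 and O3. Epithelium had at most 4 counts. Apart from O1, every stromal sample was above every epithelial sample. Myf5 also missed the filter, and the unfiltered fit gave a log2 fold change of 3.86 (SE 1.08, adjusted p = 0.00234).

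Myod1, the factor that commits cells to muscle, had similar levels in all 5 stromal samples, at 13.7 and 9.49 normalized counts in Y1 and Y3 and 9.002, 12.8 and 11.1 in O1, O2 and O3. The highest sample was 1.52 times the lowest. Epithelial samples reached 16 counts in Y3 and 10 in O3 and had at most 3 otherwise, so that the layers did not overlap. The stromal mean of 11.2 ± 2.03 (SD, n = 5) was higher than the epithelial mean of 0.124 ± 0.199 (n = 9), with a log2 fold change of 5.84 (SE 0.50, adjusted p = 4.09e-09).

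Myog, the factor of terminal differentiation, varied more. It was at 7.91 and 6.86 normalized counts in the stroma of Y1 and Y3 and at 9.87, 2.66 and 11.7 in that of O1, O2 and O3. O2 stood lowest, with 65 counts against 154 to 308 in the other 4. The highest epithelial sample, YF5, had 4 counts, which at its depth gave 1.66 normalized counts. Myog was higher in stroma by a log2 fold change of 5.41 (SE 0.69, adjusted p = 1.78e-06).

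Myf6, also called MRF4 and the main regulatory factor of adult fibers, was the member with the largest log2 fold change between the layers among the 6 tested. The stroma of Y1 and O2 had 38.02 and 38.5 normalized counts, whereas that of Y3, O1 and O3 had 22.5, 17.7 and 21.1. Epithelium had at most 13 counts. The stromal mean of 27.6 ± 9.93 (SD, n = 5) exceeded the epithelial mean of 0.245 ± 0.282 (n = 9) by a log2 fold change of 6.71 (SE 0.38, adjusted p = 1.06e-11). Myf6 and Myog did not share an order over the stromal samples. The ratio of their counts was 14.5 in O2, 4.80 in Y1 and 3.28 in Y3, and 1.79 and 1.80 in O1 and O3.

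Tbx1, a T-box factor of the pharyngeal region and of branchiomeric muscle, had the smallest spread over the stroma, at an SD of 16.4% of its mean. It was at 74.5 and 55.0 normalized counts in Y1 and Y3 and at 71.9, 77.3 and 54.8 in O1, O2 and O3, from 1238 to 1891 counts. The stromal mean was 66.7 ± 10.9 (SD, n = 5). All 9 epithelial samples had Tbx1 counts, at a mean of 3.53 ± 1.41 (n = 9). The layers differed by a log2 fold change of 4.20 (SE 0.23, adjusted p = 8.05e-12).

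Isl1, a LIM-homeodomain factor of the cardiopharyngeal progenitors that also acts in neurons and endocrine cells, was at 13.6 and 10.6 normalized counts in the stroma of Y1 and Y3 and at 17.0, 13.8 and 16.6 in that of O1, O2 and O3. Epithelium had at most 11 counts. The stromal mean of 14.3 ± 2.57 (SD, n = 5) was higher than the epithelial mean of 0.257 ± 0.238 (n = 9), with a log2 fold change of 5.82 (SE 0.40, adjusted p = 1.53e-10).

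Msc, also called musculin, a repressor-type factor of the jaw and pharyngeal muscles that is also found in activated B cells, was at 3 and 12 counts in young stroma and at 44, 5 and 46 counts in the aged stroma of O1, O2 and O3. Epithelium had at most 4 counts. The high values were those of O1 and O3. Msc missed the filter, and the unfiltered fit gave a log2 fold change of 4.77 (SE 1.15, adjusted p = 0.000275). The summed B cell markers were at 5.96 to 10.8 normalized counts in young stroma and at 2.79 to 39.4 in aged stroma, and their part in the Msc values was not tested.

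Thus all 6 members that passed the filter were higher in stroma, where 30.1% of the 16791 genes tested were higher in stroma and 56.2% differed in either direction. In each of the 6, every stromal sample was above every epithelial sample, as in 16.9% of the genes tested. The filter asks for about 10 counts in at least 5 samples, which Pax7, Myod1, Myog, Myf6 and Isl1 could reach only through the 5 stromal samples, so their difference was partly set by the filter. In the fit without it, 8 of the 9 members passed the test and were higher in stroma, all except Pax3, where 28.3% of 49574 genes differed and 17% were higher in stroma. Without the stroma of O1 and O3, 7 members reached the filter and all 7 passed, where 56.6% of 18459 genes differed and 31.3% were higher in stroma. In bulk samples, fewer cells of a type and less RNA per cell cannot be told apart.

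**Figure D2:**
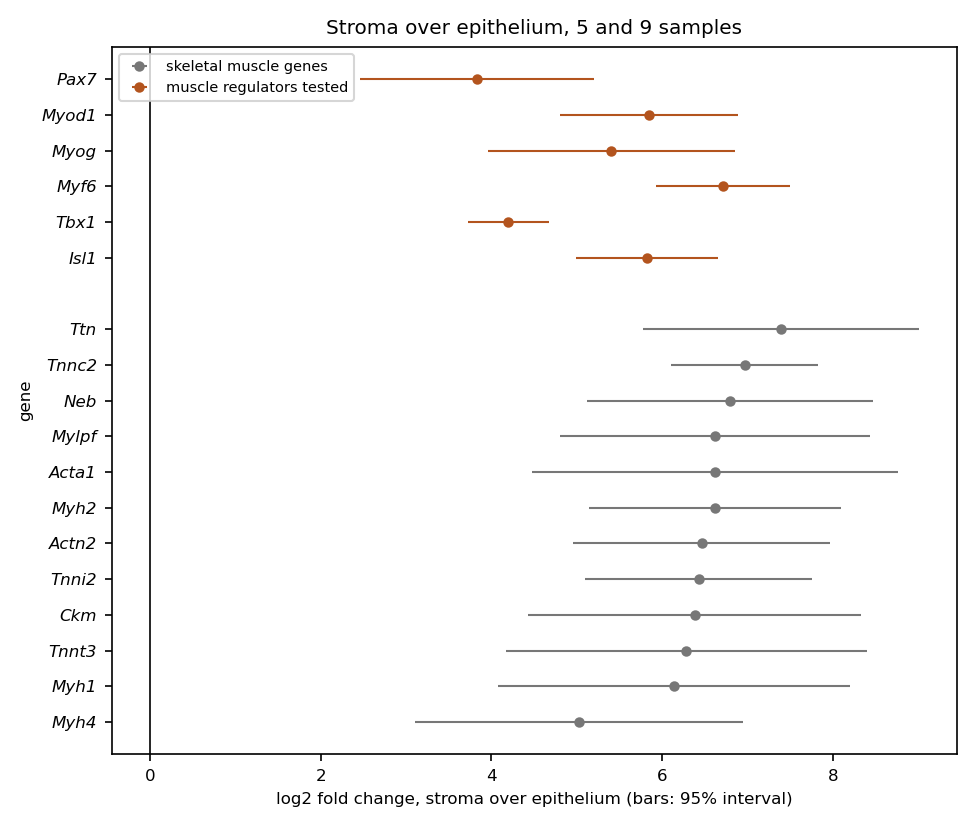
Log2 fold change of stroma (5 samples) over epithelium (9 samples) with its 95% interval for the 6 muscle regulators tested and the 12 skeletal muscle genes. Tbx1 (interval 3.72 to 4.68) and Pax7 (2.46 to 5.20) have the lowest values among the regulators, and Myf6 (5.93 to 7.50) the highest.

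Compared per kilobase of exon, which makes genes of different length comparable, the stromal levels of the members fell into an upper and a lower tier. Myf6 led at 21.8 ± 7.86 normalized counts per kb (SD, n = 5), followed by Tbx1 at 19.0 ± 3.11, and these 2 overlapped, Myf6 being higher in 4 of 5 samples. Next came Myod1 at 6.02 ± 1.09, Myog at 5.22 ± 2.29 and Isl1 at 3.61 ± 0.65, each overlapping the next. Tbx1 was 3.15 times Myod1 without overlap. Isl1, the last of the upper tier, was 7.63 times Myf5, also without overlap. The lower tier held Myf5 at 0.474 ± 0.309, Msc at 0.404 ± 0.422, Pax7 at 0.361 ± 0.238 and Pax3 at 0.0631 ± 0.0644, and their ranges overlapped. Pax7 was nonetheless above Pax3 in 5 of 5 samples.

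The lower tier was within reach of the olfactory receptor genes. In stroma the mean of 1396 such genes with a known length was 0.0377 to 0.116 normalized counts per kb, and their 95th percentile 0.153 to 0.594. The members of the upper tier were above that percentile in all 5 stromal samples, at 33.2 or more times the mean. Myf5 was above it in 4 of 5, Pax7 and Msc in 2 of 5, O1 and O3 in both cases, and Pax3 in none. Pax7 was still at 2.73 to 11.9 times the olfactory receptor mean in every stromal sample, whereas Msc ranged from 0.832 to 18.2 times and Pax3 from 0 to 3.91 times.

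**Figure D3:**
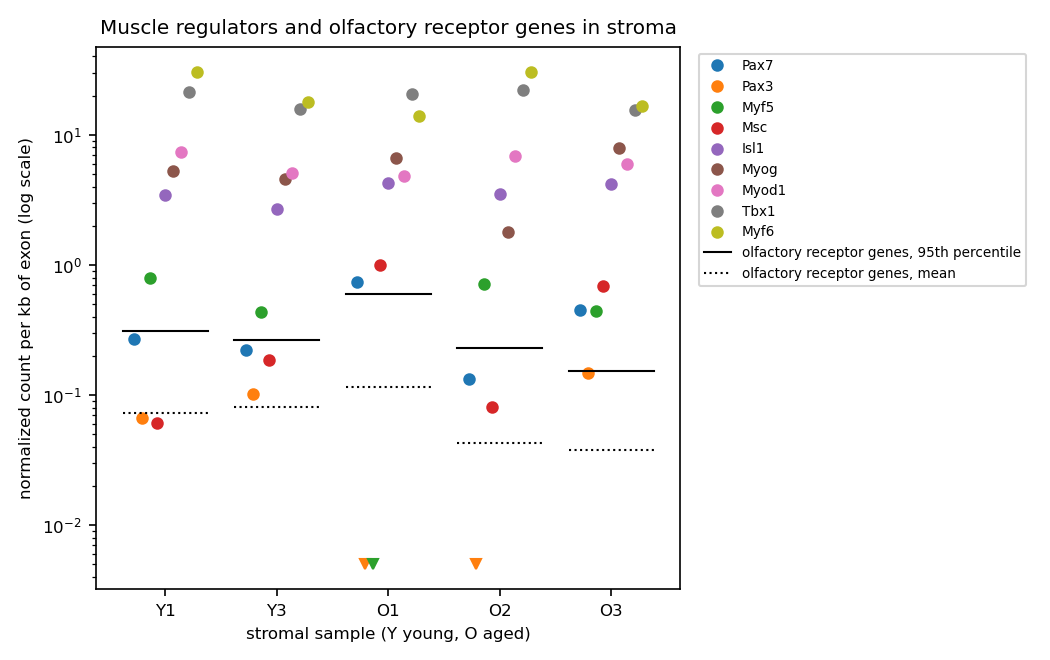
Normalized counts per kb of exon in the 5 stromal samples, on a log scale, with 1 point per gene, beside the mean (dotted line) and the 95th percentile (solid line) of 1396 olfactory receptor genes in the same library. Triangles at the bottom mark genes at 0 counts, which are Pax3 and Myf5 in O1 and Pax3 in O2. Isl1, Myog, Myod1, Tbx1 and Myf6 lie above the solid line in all 5 samples.

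Among the 5 members of the upper tier, Tbx1 had the highest epithelial level relative to stroma. In the 5 mice with both layers, its epithelial level was 4.69 and 3.09 normalized counts in Y1 and Y3 and 3.44, 3.56 and 4.78 in O1, O2 and O3, from 95 to 133 counts. The 12 skeletal muscle genes, which encode parts of the contractile apparatus, summed to 369, 617, 377, 152 and 997 in the same samples. Over these 5 samples, the highest Tbx1 level was 1.55 times the lowest, and the highest muscle sum 6.57 times its lowest. Over all 9 epithelial samples, Tbx1 ran from 0.689, on 2 counts in YM4, to 4.80 normalized counts. The muscle sum ran from 15.4 to 1699 in the same 9 samples. The source of the epithelial Tbx1 counts was not tested. As a percent of the stroma of the same mouse, Tbx1 was at 6.30 and 5.62 in Y1 and Y3 and at 4.79, 4.60 and 8.72 in O1, O2 and O3. The muscle sum was at 0.574, 1.21, 0.516, 0.302 and 2.48, below Tbx1 in 5 of 5 mice. Both percents were lowest in O2 and highest in O3. Myf6 was at 0.371, 1.30, 1.64, 0.313 and 2.54, on epithelial counts of only 4, 9, 10, 4 and 13. These percents were near the muscle sum in Y3, O2 and O3, lower in Y1 and higher in O1.

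Relative to the muscle sum, Tbx1 had 984.5 to 1540 counts per 1000000 skeletal muscle counts in stroma and 2686 to 311100 in epithelium, without overlap. In the 5 mice with both layers, the ratio was higher in epithelium by 2.93 on the log2 scale (exact permutation test over 5 and 5 samples, two-sided, p = 0.00794, the smallest this design allows), and over all 14 samples by 3.54 (exact p = 0.000999, again the smallest possible). These tests exchange samples freely and leave out that both layers came from the same mice. The 12 skeletal muscle genes had a median log2 fold change of 6.54 between stroma and epithelium, against 0.05 over all genes tested. A higher ratio in epithelium is thus largely set in advance for any gene with a smaller stromal excess, and is not particular to Tbx1. How many genes share it was not computed. When the layers were exchanged only within a mouse, as a paired test, Tbx1 was higher in 5 of 5 mice with an exact p of 0.0625, the smallest that 5 pairs allow, so that the paired design cannot reach 0.05. The same was computed for the other 5 members tested, without adjustment over the 6. For Pax7 the difference was 3.25 (exact p = 0.00794, paired 0.0625), on epithelial counts of 1 to 9 that were at a median of 1.56 times the olfactory receptor mean per kb. For Myod1 it was 0.88 (exact p = 0.0397, paired 0.0625) and over all 14 samples 1.77 (exact p = 0.052). Myf6 was at 0.35 (exact p = 0.373), and at 1.19 over all 14 samples (exact p = 0.0709). Myog was at 0.71 (exact p = 0.413), and at 2.33 over all 14 (exact p = 0.0529). Isl1 was at 0.92 (exact p = 0.143), and at 2.13 over all 14 (exact p = 0.029). In all these tests 0.5 was added to each member count in every sample, which weighs most where counts are low. Myog, for one, had 0 counts in the epithelium of Y1 and O2. In the 4 samples that enter only the test over all 14, Myod1, Myf6, Myog and Isl1 had 0 to 4 counts each, against muscle sums of 45 to 4096 counts. In the 6 epithelial samples where the 95th percentile of the olfactory receptor genes was above 0, Tbx1 was above it in 6, Myf6 in 5, Myod1, Myog and Isl1 in 3 each, Myf5 in 2, Pax7 in 1, and Pax3 and Msc in none.

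**Figure D4:**
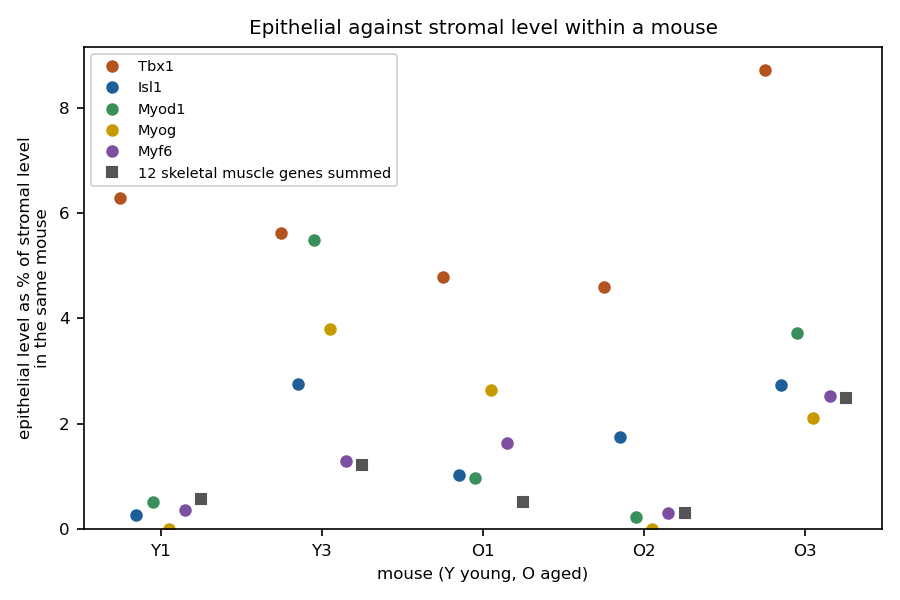
Epithelial level as a percent of the stromal level of the same mouse, for Tbx1, Isl1, Myod1, Myog and Myf6 (circles) and for the sum of 12 skeletal muscle genes (squares), in the 5 mice with both layers. Tbx1 lies between 4.60% and 8.72%, above the muscle sum (0.302% to 2.48%) in every mouse.

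Aged and young stroma were then compared, to ask whether the regulators of the muscle change with age. Every aged stromal library had fewer genes counted than the young ones, as given above, so age and library cannot be told apart. None of the 9 members passed the test, as 0 of the 21323 genes tested did (0% called). At an unadjusted p under 0.05 there were 776 genes and 0 members, and DESeq2 called 2 genes, neither a member. Tbx1 was at 68.0 ± 11.7 normalized counts in aged stroma (SD, n = 3) and 64.8 ± 13.8 in young stroma (n = 2), a log2 fold change of 0.06 with a 95% interval of -0.51 to 0.64. For Myod1 the log2 fold change was -0.09 (-0.93 to 0.76), for Myf6 -0.23 (-1.10 to 0.63) and for Myog 0.12 (-1.23 to 1.47). The interval of Tbx1 was the narrowest of the 9. For the genes with low counts the intervals were wide, at -1.51 to 3.13 for Pax7, -6.07 to 4.58 for Pax3, -4.71 to 3.38 for Myf5 and -1.72 to 6.16 for Msc.

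Isl1 was the only member whose aged and young samples did not overlap, that is 1 of 9 beside 20.6% of the genes tested. Its lowest aged sample was at 13.8 and its highest young sample at 13.6 normalized counts. The log2 fold change was 0.38 (95% interval -0.35 to 1.10, unadjusted p = 0.276 in edgeR's quasi-likelihood test), and the adjusted p was 1. Beside it, 5 neuronal marker genes summed to 9.66 and 9.85 normalized counts in young stroma and to 16.8 to 19.3 in aged stroma. Of these, Uchl1 was at 2.11 and 2.79 in young and 6.74 to 12.9 in aged stroma, while the neuron-specific Elavl4 had 0 to 6 counts in every stromal sample. The part of neurons in the Isl1 values was not tested.

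Pax7 and Msc had higher means in aged stroma, at 2.57 ± 1.76 against 1.44 ± 0.211 and at 1.504 ± 1.195 against 0.312 ± 0.224 normalized counts (SD, n = 3 and n = 2), with O2 below the young mean in both. The aged samples above the young ones were O1 and O3, the libraries with the most counts per olfactory receptor gene counted. Without these 2 libraries the log2 fold changes turned from 0.81 to -0.89 for Pax7 and from 2.22 to -0.62 for Msc, neither passing the test. In that fit Myog was lower with age, at -1.47 (SE 0.45, adjusted p = 0.0254), but it compares the single aged sample O2, assumed to vary like the young ones, with 2 young samples, and 1663 of 24733 genes were called in it.

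In epithelium only Tbx1 reached the filter for a comparison of ages. Its level was 3.74 ± 1.12 (SD, n = 5) normalized counts in aged mice and 3.26 ± 1.86 (n = 4) in young mice, with a log2 fold change of 0.10 (SE 0.32, adjusted p = 0.999), where 2 of 15107 genes (0.0132%) were called. Whether an age difference itself differed between the layers was tested in the mice with both layers (10 samples), and 0 of 22771 genes (0%) and 0 of 9 members were called, with 979 genes and 0 members at an unadjusted p under 0.05 and 45 genes, no member among them, by DESeq2. The largest such difference among the members was that of Msc, at 4.43 (95% interval -0.85 to 9.71).

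The wider pathway was read from 5 lists of known regulators and targets, in the comparison of stroma with epithelium, where the median log2 fold change over all genes tested was 0.05. As for the members, genes counted in stroma alone could reach the filter through the 5 stromal samples, so the genes tested partly depend on the outcome. In the fit without the filter, 9 of 17 upstream regulators, 9 of 12 partners and 6 of 17 inhibitors were higher in stroma. So were 9 of 15 satellite cell genes and 12 of 18 targets. In the same order of lists, 3, 0, 6, 2 and 1 genes were lower. Of all 49574 genes in that fit, 17% were higher in stroma and 28.3% differed in either direction. In the fit with the filter, used for the lists below, these shares were 30.1% and 56.2%. Of 16 upstream regulators tested of 17, which include the Eya cofactors that act above the myogenic regulatory factors, 9 were higher in stroma, 3 were lower and 4 did not pass, with a median of 1.76. Lbx1, a homeobox factor known from migrating muscle precursors, was at 5.44 and 3.77 normalized counts in young and 7.67, 5.28 and 6.44 in aged stroma, with a log2 fold change of 5.98 (SE 0.52). Pitx3 (5.55, SE 0.77) and Six4 (5.45, SE 0.35) were also higher. Pitx1, a homeobox factor, was lower in stroma, at -5.78 (SE 0.89), as were the transcriptional cofactors Eya2 (-1.43) and Eya3 (-1.01). Of the other regulators of head muscle in that list, chosen for mention after their values were seen, Tcf21 did not pass (0.61, SE 0.61) and Lhx2 missed the filter.

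Of 11 partners of the myogenic regulatory factors tested of 12, 10 were higher in stroma and none was lower, with a median log2 fold change of 1.75. The largest values were those of Vgll2, a cofactor of TEAD proteins (7.81, SE 0.71), Mef2c (6.00, SE 0.33), the chromatin subunit gene Smarcd3 (5.45, SE 0.26) and Tead1 (2.35, SE 0.16). The broadly expressed E protein gene Tcf12 did not pass (0.10, SE 0.15). Vgll2 was uneven over the stroma, at 6.52 and 1.37 normalized counts in Y1 and Y3 and 9.99, 1.72 and 14.5 in O1, O2 and O3, highest in the samples O1 and O3.

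Inhibitors of the myogenic regulatory factors went both ways, with 6 of 16 tested (of 17) higher in stroma, 6 lower and 4 not passing. Their median was 0.17. Beside them, 30.1% of all genes tested were higher in stroma and 56.2% differed in either direction. The Notch target Hey1 (3.77, SE 0.65), the deacetylase gene Hdac9 (3.26, SE 0.35), Bhlhe41 (2.96, SE 0.39) and Zeb1 (2.23, SE 0.18) were higher. Snai2 (-5.26, SE 0.75), Mdfi, whose product binds the MyoD family (-4.91, SE 0.40), the Notch target Hes1 (-3.14, SE 0.39) and Id4 (-2.46, SE 0.57) were lower.

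Of 10 satellite cell genes tested of 15, 6 were higher in stroma, 2 were lower and 2 did not pass, with a median of 1.2. Cdh15, or M-cadherin, was at 9.25 and 5.02 normalized counts in young and 6.91, 5.604 and 8.72 in aged stroma, with a log2 fold change of 5.93 (SE 0.49). The integrin gene Itga7 (4.14, SE 0.25), Ncam1 (3.40, SE 0.25) and the chemokine receptor gene Cxcr4 (2.18, SE 0.76) were also higher, whereas the receptor gene Notch3 (-3.28, SE 0.18) and the proteoglycan gene Sdc4 (-0.97, SE 0.22) were lower. Itga7, Ncam1 and Cxcr4 are known from other cells as well. Calcr, a marker of quiescent satellite cells, missed the filter, at 4, 17, 34, 33 and 0 counts in the stroma of Y1, Y3, O1, O2 and O3.

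Of 14 targets of the myogenic regulatory factors tested of 18, 12 were higher in stroma, 1 was lower and 1 did not pass, with a median of 5.38. The embryonic myosin gene Myh3 (6.14, SE 0.43), the cardiac actin gene Actc1 (6.12, SE 0.77), Klhl31 (6.09, SE 0.72) and Chrna1, a subunit gene of the acetylcholine receptor (6.00, SE 0.42), had the largest values. Reads of myosin genes can be shared between close copies, so the level of Myh3 is uncertain. The lower gene was Cdkn1a, the cell cycle inhibitor gene that many cell types use (-1.10, SE 0.20). No gene of the 5 lists passed the test for age in either layer or for the difference of age effects between the layers.

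Genes with patterns most like those of the members were sought over the 14 samples, as those with the smallest root mean square difference of log2 normalized counts centred on each gene's mean. These values mostly follow the difference between stroma and epithelium and the shared libraries, and are descriptions. Nearest to Myod1 were Sbk3 (0.26), Nexn (0.28) and Neu2 (0.30), against a median of 2.12 over the other 16790 genes. Myf6 had Abcb4 (0.31), Cox7a1 and Tmem38a (0.35 each), and Tbx1 had Acyp2 (0.37), Gpc1 (0.38) and Cacna2d1 (0.40). For Isl1 they were Gm830 and Fam13a (0.31 each) and Coq8a (0.33), for Myog Sim1 (0.32), Gm31659 (0.40) and Mamstr (0.43), and for Pax7 Myo7a (0.27), Kif28 (0.29) and Gm7957 (0.29). Among the members themselves, Isl1 and Myod1 were closest (0.44) and Myf6 and Pax7 farthest apart (1.74).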

How the data were processed

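Bulk RNA-Seq libraries of poly(A)-selected RNA were made by the authors, who aligned reads to GRCm38.p6 with Rsubread, counted them per gene with featureCounts and deposited whole-number counts without normalization. Settings for strand and for reads matching several genes are not given in the sources used here. The members and gene lists were chosen with earlier results of these data known. The test was edgeR's (version 4.0.16, R 4.3.3) robust quasi-likelihood test (TMM scaling, genes kept by filterByExpr at a minimum count of 10) with p-values adjusted over all genes tested (Benjamini-Hochberg, threshold 0.05). Layer was compared over 14 samples, age in 5 stromal and in 9 epithelial samples (with a covariate for the 2 forms of mouse code), and the interaction in 10 samples. Intervals of log2 fold changes use the t distribution with the test's degrees of freedom. Levels are TMM-adjusted CPM, and per kb uses GENCODE M21 exon lengths. Ratios were compared by exact permutation with scipy 1.17.1. Genes beyond the members are named by rule: up to 4 per list and direction ranked by log2 fold change among those that passed, and the 3 nearest in pattern to each member; some genes that the rule or lists hold are not reported here. DESeq2 1.42.0, other normalizations and filters, mouse as a block and omission of each mouse were tried. Same-coded samples come from the same mouse, so the 5 mice with both layers are paired; the deviations of a mouse's 2 layers from their group means correlated at 0.0292 to 0.158 over 14325 genes. No 2 replicates agreed within sampling noise (lowest chi-square per degree of freedom 12.0 over 20 pairs). The procedure was also run on simulated data, and the outcome is not reported here.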

Additional observations from a re-analysis of the deposited data

Results flagged for a closer look

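In 12 groups of 4 or 5 epithelial samples, formed by the 6 members tested between the layers in young and in aged mice, the gap of the highest or lowest sample to the others was examined relative to the whole range, and 2 samples stood apart. The cut-offs are set so that chance singles out about 1 in 20 groups of normally distributed values. Many of the values here came from low counts with ties at 0, in libraries of unlike depth, so that rate need not hold. Pax7 in the young epithelium of Y3 was at -0.39 on the scale of log2(normalized count + 0.5), on 8 counts, against -1 to -0.9 in the other 3 young samples. Myod1 in the aged epithelium of O3 was at -0.13 on the same scale, on 10 counts, against -1 to -0.77 in the other 4 aged samples. Beside these values, the epithelium of Y3 had counts in 1037 of 1408 olfactory receptor genes, the most of any epithelial sample, and the epithelium of O3 had the highest skeletal muscle sum among the 5 mice with both layers, at 997 normalized counts. The part of either in the values was not tested.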

How the results depend on the processing

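The log2 fold changes of the 6 members tested between stroma and epithelium kept their direction and passed the test in 18 of 18 alternatives, ranging from 2.86 to 4.24 for Pax7, 5.58 to 6.58 for Myod1, 4.95 to 5.84 for Myog, 6.42 to 7.10 for Myf6, 4.01 to 4.33 for Tbx1 and 5.602 to 6.017 for Isl1. In the paired fit with mouse as a replicate block, in the 5 mice with both layers, 6 members and 8591 of 16713 genes passed, and the satellite cell genes higher in stroma went from 6 to 4. The median log2 fold change of all genes was 0.05, and 0.15 with upper quartile normalization, 0.12 with DESeq2 size factors and -0.14 with the replicate block. Requiring 10 counts in every sample left 4315 genes called between the layers and no member to test, since fewer genes were tested. Calls over all genes moved elsewhere, and the cause was not tested where none is given. For age in stroma, 0 genes became 2 with DESeq2, 26 without a filter, 6 with the replicate block by the number in the mouse code, a number that marks no shared animal, and 0 to 13 with each mouse left out (13 without Y1 and 7 without Y3). Without the stroma of O1 and O3, chosen after seeing the data, 1663 genes and 1 member passed, and Myog turned to -1.47. For age in epithelium, 2 genes became 24 with DESeq2, 36 without a filter, 0 without the covariate, 4 in the 5 mice with both layers, 4 with the replicate block by number and 0 to 3 with each mouse left out (0 without Y1 and 1 without O1). For the interaction, 0 genes became 45 with DESeq2, 98 without a filter and 134 without the mice O1 and O3. No member was called in any of these except Myog. The ratio of Tbx1 to the skeletal muscle sum stayed higher in epithelium, by 2.68 to 3.21, with each mouse left out. That direction was largely set in advance by the larger stromal excess of the skeletal muscle genes, so leaving out mice does not test it. With the layers exchanged within each mouse (replicate block), the ratios of Tbx1, Pax7 and Myod1 had an exact p of 0.0625, the smallest possible, and no longer passed. For Myod1 that ratio did not pass with all 14 samples or with any mouse left out, and for Isl1 it passed at an unadjusted p under 0.05 with all 14 samples and without Y1. Depth limits most the 4 mice without stroma.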
